A study of Arabidopsis thaliana with 8 samples.

Results

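A set of 60 probe sets, out of 22746 searched on ATH1 arrays, read higher than the warm control after 1 h at 4 °C and again after 24 h. They were chosen by measured values. On the log2(signal + 6) scale, the mean of the 2 arrays at 1 h and the mean at 24 h had to exceed the control mean by at least 0.8. All 4 arrays of those times had to lie above both control arrays, and both 24 h arrays had to reach a signal of 40. The 3 probe sets of the CBF genes and that of PUB19 also met these criteria and were left out beforehand, as were STZ, COR27 and AT4G33980, which did not meet them. A single gene was named by the array's annotation for 29 of the 60, and no gene for the other 31. Whether their rise lasted to 7 d was not part of the choice.

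The plants were Arabidopsis thaliana Col-0, a widely used laboratory accession, grown on soil, and their above-ground parts were harvested without roots. The control group (0 h) was taken at 22 °C in continuous light of 100 µmol m-2 s-1, and the cold groups after 1 h, 24 h or 7 d at 4 °C in continuous light of about 25 µmol m-2 s-1, with 2 arrays per group. All groups had 4 d of cold stratification and are labelled 18 d old, although the labels also mention 10 d of growth at 22 °C, which leaves the true age unsettled. Every comparison with control therefore also compares dimmer with brighter light, and no warm plants of the later times were analysed here, so cold, light and plant age cannot be told apart. The labels do not say whether the 2 arrays of a group came from separate flats of plants, so the p-values measure the spread between these arrays.

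When Arabidopsis is moved to low temperature, transcripts of regulators such as the CBF factors accumulate first, and those of protective proteins such as the COR proteins, the CBF factors' targets, follow. Many of the earliest responses are transient and are shared with touch, wounding and other rapid stresses. Cold acclimation, the gain in freezing tolerance over days, also involves calcium signals, remodelling of the cell wall, and adjustment of translation and of transport across membranes. Genes whose transcripts appear within the first hour and are still high a day later span these phases.

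Median signals of the 8 arrays ranged from 32.8 to 37.7, and the 2 arrays of a time had r of 0.972 to 0.976 over probe sets, which are not independent replicates. Arrays of different times had r of 0.937 to 0.973, so some agreed as closely as replicates did. RCA, which encodes the activase of the carbon-fixing enzyme Rubisco and was the named gene among 5 leaf markers, read 3404 to 5935. Of 5 root markers 3 were named: the root hair expansin genes EXPA7 and EXPA18 read at most 26.5, and PYK10, an abundant root beta-glucosidase gene, read 152 and 130.1 on the control arrays, 158 and 144 at 1 h, 109 and 85.3 at 24 h, and 15.6 and 18.9 at 7 d. The guard cell marker FAMA read 41.3 to 74.1, and no flower or seed marker was named. For the GAPDH control, the 3' probe set read over the 5' one by a ratio of 1.24 and 1.26 on the control arrays, 1.46 and 1.46 at 1 h, 1.34 and 1.18 at 24 h, and 1.36 and 1.17 at 7 d. The same ratio for actin was 2.86 on the second 1 h array and between 5.56 and 9.01 on the remaining 7. The part of these differences in the results below was not tested. In whole shoots, fewer cells of a type and less RNA per cell cannot be told apart.

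By construction the 60 members stood above control at both early times. Their differences ran from 0.81 to 2.84 at 1 h, with a median of 1.26, and from 0.84 to 5.20 at 24 h, with a median of 1.69. Over all 14756 probe sets tested the medians were -0.04 at 1 h and -0.10 at 24 h. In limma's fit over all tested probe sets, 23 of the 60 passed at 1 h and 58 at 24 h at a Benjamini-Hochberg adjusted p under 0.05. None was called lower. Of all tested probe sets 0.867% were called higher and 0.0407% lower at 1 h, and 11.1% higher and 15.1% lower at 24 h; nothing is read from the members' counts, since the choice used the same differences. The 23 became 9 to 15 without any 1 of the control, 1 h and 24 h arrays, 13 without the variance trend and 40 under the replicate block. AT1G76360, AT3G17800 and an unnamed probe set lay just inside the 1 h threshold at 0.81, 0.82 and 0.84, and AT1G69570, AT4G05070 and AT1G21050 just outside it at 0.80, 0.79 and 0.77. Inside the 24 h threshold lay AT3G17800 at 0.84, AT3G52870 at 0.85 and an unnamed probe set at 0.87, and outside it AT1G11960 at 0.78, AT2G39980 at 0.71 and an unnamed probe set at 0.74. For the signal threshold, the lower 24 h signal was 41.2 and 47.0 for 2 unnamed members and 48.3 for AT1G49450 inside it, and 35.5 for AT5G15700 and 38.3 and 32.7 for 2 unnamed probe sets outside it. Without control replicate 2 the same criteria were met by 110 probe sets, of which 53 were among the 60, and without control replicate 1 by 71, of which 44 were among them.

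The members differed in how 24 h compared with 1 h. In 21 of 60 the 24 h level was at least 1 log2 unit above the 1 h level with no overlap of the arrays, in 2 it was lower by as much (4 without 1 h replicate 2 or 24 h replicate 2), and 37 lay between. These are descriptions without a test, because both times were used in the choice. Among all tested probe sets the same criteria were met by 5.09% for higher and 7.01% for lower. The steepest further increase was that of AT1G51090, a gene for a heavy-metal-associated domain protein, at 3.77. AT4G01870 (2.73), AT3G04010 (2.29), AT1G27200 (2.19) and AT1G11210 (1.96) followed among the named members. At the other end AT4G32020 stood at -0.33, AT1G24530 at -0.24, ATPMEPCRB at -0.21, AT2G27500 at -0.16 and AT3G52870 at -0.02. The arrays of 1 h and 24 h overlapped in the last 4 of these, so their levels at the 2 times were not separated. The 2 members that were lower at 24 h by at least 1, probe sets 247655_at and 248799_at, have no gene named here; the first read 219 and 247 at 1 h and 89.0 and 107 at 24 h, the second 182 and 174 and then 57.5 and 64.8.

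**Figure D1:**
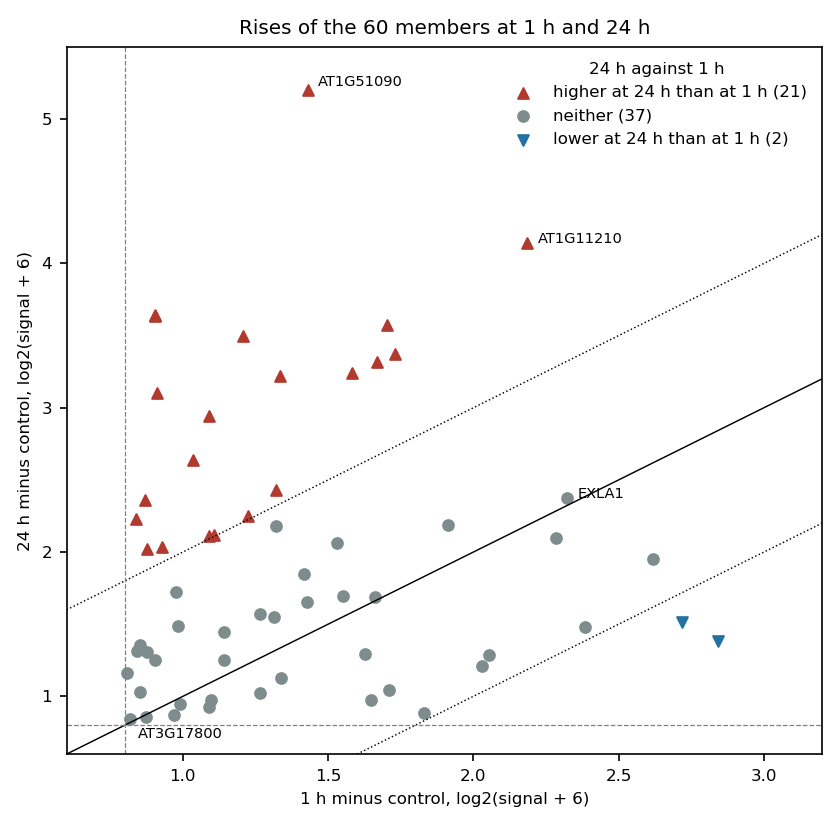
Difference from control at 1 h (horizontal axis) and 24 h (vertical axis) for the 60 members, both as log2(signal + 6) means of 2 arrays. The solid line marks equal rises, the dotted lines a difference of 1, and the dashed lines the thresholds of 0.8; 21 members lie above the upper dotted line with separate arrays and 2 below the lower one.

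At 7 d, which the choice did not use, 30 of 60 members were still higher than control and none was lower. The shares of all tested probe sets called at 7 d were 7.33% higher and 8.54% lower. The control arrays enter this comparison and the choice alike, so a control value that is low by chance favours both. The median difference over the members was 0.87 (range -0.42 to 2.91) against -0.00153 over all tested probe sets. Both 7 d arrays lay above both control arrays in 48 of 60 members and below both in 1; of all tested probe sets 29.1% lay above and 29.9% below. Of the 21 members that were higher at 24 h than at 1 h, 17 were above control at 7 d, and of the other 39 members 13 were. That difference in shares was not tested. Leaving out control replicate 1 lowered the count of 30 to 19, and leaving out control replicate 2 lowered it to 20. The markers RCA (-0.67 ± 0.10, adjusted p = 0.00386) and PYK10 (-2.66 ± 0.17, adjusted p = 0.000100) were lower at 7 d than in control, and their part in the members' differences was not tested.

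The 5 named members that stayed above control at 7 d in all 17 alternative fits were AT1G51090, AT1G11210, AT5G17850, AT1G27200 and ATPMEPCRB. AT1G49450 passed in all 16 that tested it, and was filtered out as weak in the other. The 5 stood between 2.92-fold and 5.62-fold above it at the pseudocount of 6. AT5G17850, for a cation/calcium exchanger, had a 7 d difference of 2.49 ± 0.28 (SE, n = 2 arrays per time), the largest among named members. With a pseudocount of 16, without control replicate 1 or without 7 d replicate 1 another named member was higher. ATPMEPCRB, for a pectin methylesterase, was the one of the 5 whose 7 d mean was not below its 24 h mean. At the low end, EXLA1 (-0.40 ± 0.24, adjusted p = 0.294) and AT3G17800 (-0.42 ± 0.27, adjusted p = 0.336) had 7 d means below control and did not pass.

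Against 24 h, 24 of 60 members were lower at 7 d and none was higher, while 4.21% of all tested probe sets were called lower and 4.32% higher. Members were kept for high 24 h values, which by itself moves this difference down. The median was -0.88 over the members and 0.08 over all tested probe sets. For the same 60 members the median was -0.92 without 24 h replicate 1 and -0.85 without 24 h replicate 2. The 24 h array left in each case had also been used in the choice, so these medians cannot show the effect of that choice. In 43 of 60 members both 7 d arrays lay below both 24 h arrays, against 23% of all tested probe sets. The count of 24 rests on few arrays: it was 5 without 24 h replicate 1, 7 without 24 h replicate 2, and 15 without either 7 d array. AT1G51090, AT4G36010, EXLA1 and AT5G60680 were lower than at 24 h in each of the 17 alternatives. Combining both comparisons, 11 members were above control and below their 24 h level at 7 d, and 19 were above control and did not pass against 24 h. A further 13 passed only as lower than at 24 h, and 17 passed neither. The shares of all tested probe sets in these joint classes were not counted, so nothing is read from them.

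**Figure D2:**
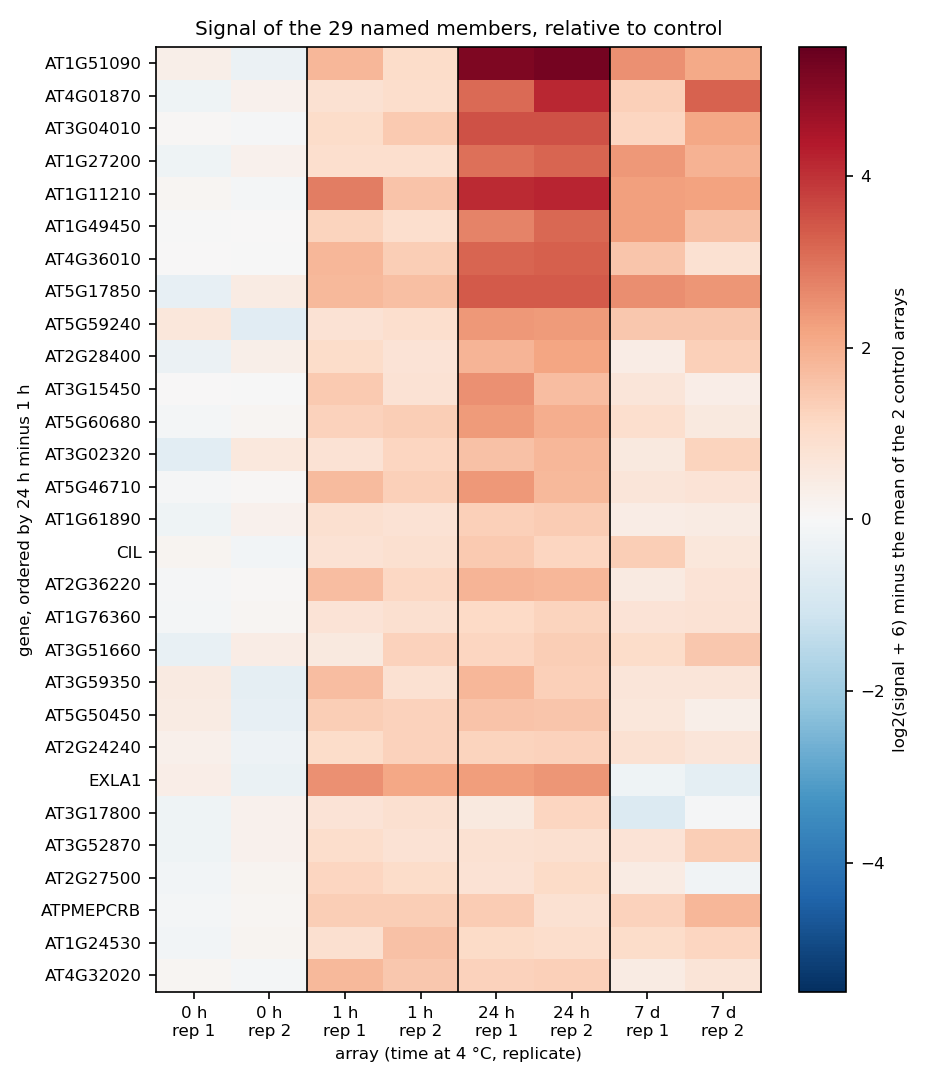
Signal of each of the 29 named members on each of the 8 arrays, as log2(signal + 6) minus the mean of the 2 control arrays (colour). Genes are ordered by 24 h minus 1 h; AT1G51090 at the top reads darkest at 24 h, and EXLA1 turns pale at 7 d.

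Of the named members, 6 were grouped here as genes of the cell wall or its surroundings, and where their products lie was not examined. At 7 d 4 of the 6 were above control, where 30 of all 60 members and 7.33% of all tested probe sets were. EXLA1, an expansin-like gene of the family that loosens walls, read 56.7 and 32.7 on the control arrays, 273 and 211 at 1 h, 239.6 and 258 at 24 h and 35.3 and 27.7 at 7 d. Its 1 h and 24 h arrays overlapped, at 5.00-fold and 5.17-fold control, and its 7 d arrays overlapped the control arrays. Between 24 h and 7 d it fell 6.83-fold (-2.77 ± 0.24, adjusted p = 0.00118). EXLA3, its neighbour in the genome and of the same family, was too weak to be tested. ATPMEPCRB, whose pectin methylesterase product trims methyl groups from pectin, read 56.0 and 67.4, 165 and 164, 172 and 116 and 158 and 229.9 on the control, 1 h, 24 h and 7 d arrays. Its 3 cold times overlapped one another and all lay above control, with a 7 d difference of 1.55 ± 0.23 (adjusted p = 0.00388).

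AT3G04010 and AT2G27500, both of the beta-1,3-glucanase family that cuts callose, took different courses. AT3G04010 was near the bottom of the scale before cold at 3.68 and 2.92, then read 12.5 and 18.9 at 1 h, 99.4 and 98.1 at 24 h and 15.4 and 35.2 at 7 d. Its 24 h arrays were the highest, and its 7 d arrays lay between them and the control arrays. It was above control by 1.67 ± 0.33 at 7 d (adjusted p = 0.0131), a call that ended without either control array or 7 d replicate 2 (adjusted p 0.0545 to 0.0642). The difference was 2.51 with a pseudocount of 1 and 1.05 with one of 16. Its fall from 24 h of -1.82 ± 0.33 (adjusted p = 0.0171) was lost without either 24 h array (0.0902 and 0.0935). AT2G27500 read 37.3 and 47.4 before cold, 102 and 90.9 at 1 h, 78.5 and 92.8 at 24 h and 58.9 and 36.7 at 7 d. Its 7 d arrays overlapped control (0.13 ± 0.22, adjusted p = 0.742), and its difference from 24 h was -0.80 ± 0.22 (adjusted p = 0.0600, or 0.0302 without 7 d replicate 1).

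The thaumatin-like gene AT4G36010, of a family of pathogenesis-related proteins, read 25.1 and 24.0 before cold, 102 and 71.2 at 1 h, 272 and 293 at 24 h and 82.5 and 48.9 at 7 d. It fell 4.14-fold from 24 h to 7 d (-2.05 ± 0.24, adjusted p = 0.00340), with no overlap between those times. Its 7 d difference from control, 1.19 ± 0.24 (adjusted p = 0.0148), did not pass without either control array or 7 d replicate 1 (0.0598 to 0.0687). AT1G27200, for a DUF23 protein resembling glycosyltransferases, read 24.9 and 36.3, 61.7 and 62.2, 286 and 323 and 180.0 and 129 in the same order of times. Its larger step came after 1 h, and at 7 d it was 4.39-fold above control (adjusted p = 0.000548). Its fall from 24 h (-0.97 ± 0.20, adjusted p = 0.0257) ended as a call without either 24 h array or 7 d replicate 2 (0.0909 to 0.134).

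The 2 transport genes were AT5G17850 and AT1G61890. AT5G17850, the cation/calcium exchanger gene, read 2.83 and 10.9 before cold, 36.1 and 32.9 at 1 h, 119 and 122 at 24 h and 66.5 and 58.9 at 7 d. Its 4 times did not overlap, with the 7 d arrays between those of 1 h and 24 h, and it was above control at 7 d by 2.49 ± 0.28 (adjusted p = 0.00121). That difference was 3.24 with a pseudocount of 1 and 1.81 with one of 16. Its difference from 24 h was -0.88 ± 0.28 (adjusted p = 0.0844) and passed without control replicate 1 or control replicate 2 (0.0253 and 0.0264). AT1G61890, for a transporter of the MATE family, which exports organic compounds, read 68.9 and 99.5, 159 and 150.2, 214 and 229 and 111 and 114 on the control, 1 h, 24 h and 7 d arrays. Both of its 7 d arrays lay just above the control arrays (0.41 ± 0.17, adjusted p = 0.146). Its fall from 24 h was -0.94 ± 0.17 (adjusted p = 0.0177), which did not pass without any 1 of the 24 h and 7 d arrays (0.0528 to 0.0960).

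**Figure D3:**
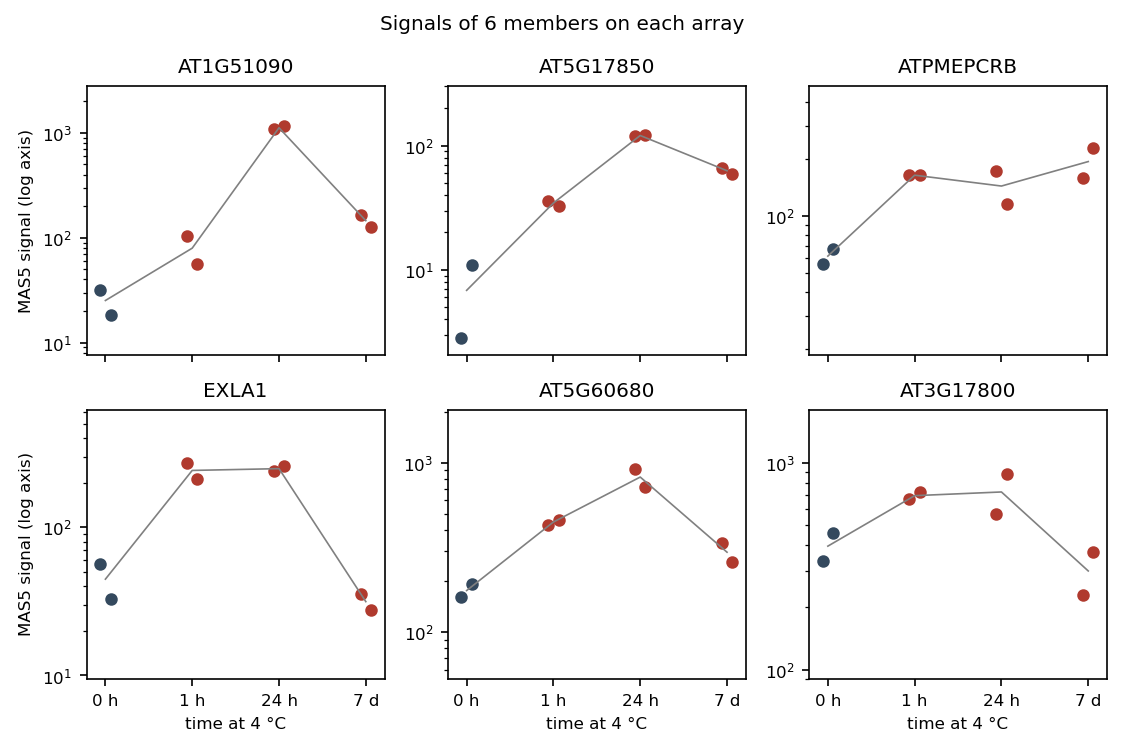
MAS5 signal of 6 members on every array (dots, logarithmic axis), with the line through the mean of the 2 arrays at each time. AT1G51090 and AT5G17850 peak at 24 h and stay above control, ATPMEPCRB is level across the cold times, and EXLA1 and AT3G17800 overlap control at 7 d.

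Among 7 genes for kinases and other regulators, 3 were above control at 7 d, where 30 of all 60 members and 7.33% of all tested probe sets were. None of the 7 differed between 1 h and 24 h by 1 log2 unit with separate arrays. AT5G46710, for a PLATZ-type zinc-dependent DNA-binding protein, read 51.9 and 58.6 before cold, 201 and 145 at 1 h, 309 and 202 at 24 h and 90.7 and 97.2 at 7 d. Its 7 d arrays stood slightly above control (0.71 ± 0.22, adjusted p = 0.0654, but 0.0472 and 0.0462 without 24 h replicate 1 or 2). From 24 h it fell 2.56-fold (adjusted p = 0.0119), a call lost without 24 h replicate 1 (0.0624) or 7 d replicate 2 (0.0502). CIL, related to the gene CIA2 for a regulator of protein import into chloroplasts, read 24.7 and 18.6, 42.3 and 44.1, 69.3 and 56.2 and 64.4 and 36.0. All 6 cold arrays of CIL were above both control arrays, and its 7 d difference of 0.99 ± 0.26 (adjusted p = 0.0366) held without 7 d replicate 2 and failed without any 1 of the other 7 arrays (0.0531 to 0.162).

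The protein kinase genes AT3G59350 and AT1G76360 were both modest. AT1G76360 read 46.1 and 53.2 on the control arrays, 87.4 and 95.2 at 1 h, 113 and 124 at 24 h and 88.4 and 91.6 at 7 d. Its replicates were close, and it was 1.73-fold above control at 7 d (0.79 ± 0.15, adjusted p = 0.00978; 0.0663 without control replicate 1). AT3G59350 read 89.3 and 42.6, 212 and 117, 234 and 165 and 102 and 103, with wide gaps within the first 3 groups. At 7 d its difference from control was 0.67 ± 0.35 (adjusted p = 0.231).

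AT3G52870, for a protein with an IQ motif that binds calmodulin, read 47.0 and 66.2 before cold, 115 and 100.4 at 1 h, 104 and 107 at 24 h and 98.0 and 151 at 7 d. Its cold times overlapped and lay above control, and the 7 d difference of 1.05 ± 0.22 (adjusted p = 0.0177) did not pass without control replicate 1 (0.109) or 7 d replicate 2 (0.0795). AT5G50450, for a MYND zinc-finger protein, read 74.0 and 37.8, 144 and 139, 170.5 and 165 and 85.3 and 67.7. Its 7 d arrays overlapped control (0.47 ± 0.26, adjusted p = 0.251, or 0.0427 without control replicate 1). The fall of AT5G50450 from 24 h (-1.08 ± 0.26, adjusted p = 0.0366) was lost without any 1 of the 6 cold arrays (0.0549 to 0.151). AT2G24240, for a protein with a BTB/POZ interaction domain, read 24.9 and 14.4, 44.3 and 55.0, 52.8 and 54.9 and 39.1 and 33.6, and its 7 d difference was 0.75 ± 0.24 (adjusted p = 0.0634, or 0.0469 without control replicate 1).

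Both genes for WD40-repeat proteins, scaffolds for other proteins, were above control at 7 d. So were 30 of all 60 members and 7.33% of all tested probe sets, and nothing is read from a count of 2. AT1G49450 was near the bottom of the scale before cold at 2.03 and 2.40, and read 13.5 and 9.71 at 1 h, 48.3 and 67.8 at 24 h and 32.9 and 19.3 at 7 d. It was highest at 24 h and passed as above control at 7 d (1.93 ± 0.32, adjusted p = 0.00653). At such control signals the pseudocount sets the size of the difference, which was 3.03 with a pseudocount of 1 and 1.19 with one of 16. AT1G24530 read 34.0 and 43.9 before cold and 77.5 and 132, 87.3 and 82.2 and 84.9 and 96.3 at the 3 cold times. Those 3 times overlapped one another, and the 7 d difference of 1.11 ± 0.24 (adjusted p = 0.0174) was lost without control replicate 1 (0.104) or 7 d replicate 2 (0.0760).

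The 2 genes with roles in translation had control arrays far apart. AT5G59240, for a cytosolic ribosomal protein of the S8e family, read 18.7 and 4.18 before cold, 21.5 and 24.4 at 1 h, 76.9 and 74.3 at 24 h and 39.0 and 38.3 at 7 d. Its 1 h arrays were little above control replicate 1, and the clear separation came at 24 h. The 7 d difference of 1.49 ± 0.36 (adjusted p = 0.0269) was lost without control replicate 2 or either 7 d array (0.0579 to 0.0901), and that from 24 h (-0.87 ± 0.36, adjusted p = 0.162) passed without control replicate 1 or control replicate 2 (0.0388 and 0.0322). AT3G02320, for a tRNA methyltransferase, read 7.38 and 23.5, 28.4 and 38.4, 54.8 and 64.4 and 23.2 and 40.2. Its 7 d arrays overlapped control (0.89 ± 0.38, adjusted p = 0.149, or 0.0419 without control replicate 2).

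AT5G60680 and AT2G28400 share the plant-specific domain DUF584. Both had 7 d arrays below both 24 h arrays. So did 43 of all 60 members, which were kept for high 24 h values, and 23% of all tested probe sets. AT5G60680 read 160.1 and 191 before cold, 431 and 461 at 1 h, 921 and 723 at 24 h and 334 and 257 at 7 d. It fell 2.75-fold from 24 h (-1.46 ± 0.18, adjusted p = 0.00347). Its 7 d level was 1.65-fold above control (adjusted p = 0.0273), a call that ended without either control array or 7 d replicate 1 (0.0533 to 0.146). AT2G28400 read 19.7 and 34.5, 58.7 and 48.2, 113 and 138 and 36.9 and 75.0. At 7 d it differed from control by 0.87 ± 0.32 (adjusted p = 0.100, or 0.0333 without 7 d replicate 1) and from 24 h by -1.15 ± 0.32 (adjusted p = 0.0584, or 0.0394 without 7 d replicate 2).

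The 3 largest 24 h differences among the named members belonged to genes with less defined roles, AT1G51090, AT1G11210 and AT4G01870. AT1G51090, whose product carries a heavy-metal-associated domain, read 32.0 and 18.5 on the control arrays, 103 and 55.6 at 1 h, 1076 and 1154 at 24 h and 166 and 125 at 7 d. It stood 2.69-fold above control at 1 h and 36.8-fold at 24 h, fell 7.47-fold to 7 d (adjusted p = 0.00176) and was still 4.92-fold above control (adjusted p = 0.00223). AT1G11210, for a DUF761 protein of unknown function, read 28.6 and 23.1, 215 and 88.1, 532 and 577 and 147 and 139.8. Its 1 h arrays were far apart but above control, and at 7 d it stood 4.70-fold above control (adjusted p = 0.00388). The fall of AT1G11210 from 24 h (-1.91 ± 0.33, adjusted p = 0.0142) was lost without either 24 h array or 7 d replicate 2 (0.0641 to 0.0817).

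AT4G01870, for a TolB-related protein, read 62.1 and 88.5 before cold, 138 and 151 at 1 h, 697 and 1403 at 24 h and 193 and 756 at 7 d. The 7 d arrays were far apart, with the lower one still above control. Its 7 d difference of 2.28 ± 0.55 (adjusted p = 0.0266) ended as a call without either control array or 7 d replicate 2 (0.0703 to 0.135). The difference from 24 h (-1.36 ± 0.55, adjusted p = 0.152) passed without 7 d replicate 2 (0.0271). AT3G15450, of the aluminium-induced protein family, read 393 and 391, 1064 and 679, 2282 and 1299 and 623 and 509. It had separate arrays at every pair of times and, next to AT3G17800, the highest mean control signal of the named members, yet its 7 d difference from control, 0.52 ± 0.28, did not pass (adjusted p = 0.241). Its fall from 24 h of -1.60 ± 0.28 (adjusted p = 0.0144) was lost without 24 h replicate 1 (0.0662) or 7 d replicate 2 (0.0750).

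AT3G51660, for a tautomerase resembling the animal macrophage migration inhibitory factor, read 63.8 and 119.9 before cold, 129.6 and 220.4 at 1 h, 205 and 230.1 at 24 h and 180.4 and 254 at 7 d. Its level at 7 d overlapped that at 24 h, and its difference from control of 1.23 ± 0.32 (adjusted p = 0.0346) was lost without control replicate 1 or any 1 of the 24 h and 7 d arrays (0.0534 to 0.185). AT3G17800, for a DUF760 protein, read 333 and 457, 666 and 722, 565 and 880.4 and 228 and 371. Its 24 h difference was the smallest among the members, and its 7 d arrays overlapped control. The fall of AT3G17800 from 24 h of -1.26 ± 0.27 (adjusted p = 0.0269) was lost without either 24 h array or 7 d replicate 1 (0.0502 to 0.149).

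For AT2G36220 and AT4G32020 no role is given here. AT4G32020 read 392 and 344 before cold, 1284 and 1023 at 1 h, 905 and 916 at 24 h and 505 and 597 at 7 d. It was the named member with separate arrays that was lower at 24 h than at 1 h, by 1.26-fold. Its 7 d difference from control (0.57 ± 0.15, adjusted p = 0.0335) was lost without any 1 of the control, 24 h and 7 d arrays (0.0502 to 0.151), and that from 24 h (-0.72 ± 0.15, adjusted p = 0.0235) without any 1 of the 24 h and 7 d arrays (0.0540 to 0.112). AT2G36220 read 36.6 and 40.8, 140.3 and 91.2, 155 and 154 and 57.3 and 69.4. Both of its 7 d arrays were above control (0.63 ± 0.21, adjusted p = 0.0716, or 0.0432 and 0.0417 without 1 h replicate 1 or 2). It fell 2.33-fold from 24 h (adjusted p = 0.0131), a call lost without either 24 h array (0.0692 and 0.0744).

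**Figure D4:**
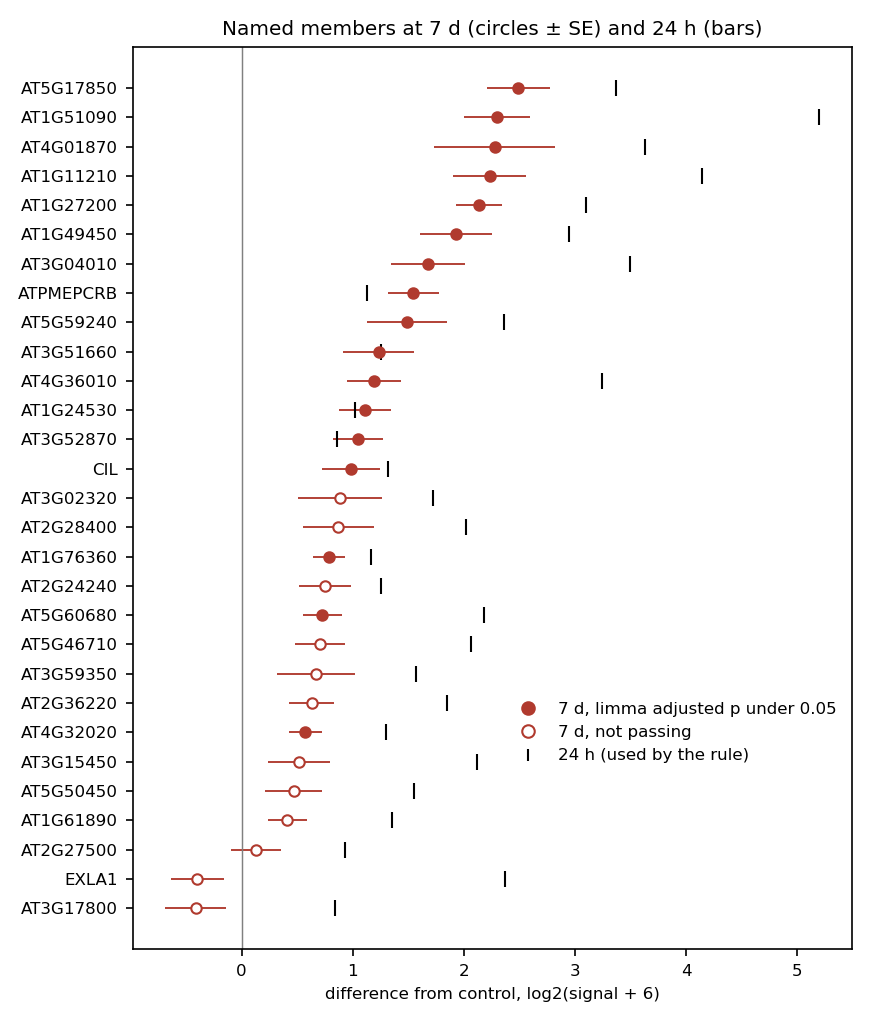
Difference from control on the log2(signal + 6) scale at 7 d (circles, with the standard error of limma's fit) and at 24 h (bars) for the 29 named members. Filled circles passed at 7 d (17 of 29), and in most rows the circle lies left of the bar, with ATPMEPCRB, AT1G24530 and AT3G52870 to its right.

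Among the 31 members without a named gene, 13 were above control at 7 d and 10 were below their 24 h level. Over all 60 members these counts were 30 and 24, and of all tested probe sets 7.33% and 4.21% were called so. Their median differences from control were 1.43 at 1 h, 1.65 at 24 h and 0.86 at 7 d, against 1.14, 1.85 and 0.89 for the 29 named members. The brightest was probe set 259516_at, which read 1023 and 508 before cold, 1729 and 1062 at 1 h, 9346 and 8817 at 24 h and 3441 and 3247 at 7 d. Its 24 h signals were the highest of any probe set on those 2 arrays, and its 7 d signals lay between those of 1 h and 24 h. One unnamed probe set had the largest 7 d difference of all members, at 2.91.

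The members started from varied levels. The mean control signal was under 40 in 24 of 60 and at least 100 in 16, with a median of 54.5. In 8 members a control array read under 10, where the pseudocount of 6 holds the fold changes down. The 2 control arrays differed by a median of 0.45 log2 units over the members and 0.20 over all tested probe sets, those of 1 h by 0.35 and 0.19, and those of 7 d by 0.40 and 0.21. At 24 h the gaps were 0.20 and 0.19.

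The lists of cold pathway genes hold 97 genes, of which the annotation named 17 and 15 could be tested. None was among the 60, but the rule barred PUB19, STZ, COR27, AT4G33980 and the CBF probe sets by name, so nothing is read from that count. Among the 4 tested COR genes and CBF targets, none passed at 1 h and all 4 were higher at 24 h and at 7 d. The 3 named clock genes, GI, COR27 and the COR28 gene AT4G33980, were likewise higher at 24 h and did not pass at 1 h. STZ and CML38 were higher at 1 h and did not pass at 24 h, with 24 h differences of 0.70 ± 0.50 for STZ (adjusted p = 0.328) and 0.05 ± 0.44 for CML38 (adjusted p = 0.944). PUB19 alone of these passed at 1 h, 24 h and 7 d. Over all lists 3 of the 15 were higher at 1 h, 8 at 24 h and 7 at 7 d, where 0.867%, 11.1% and 7.33% of all tested probe sets were. PUB24 and PUB26 were lower at 24 h, where 15.1% of all were. Without any 1 of control replicate 1 and the 1 h arrays, 1 gene of the lists was higher at 1 h, and without control replicate 1, control replicate 2 or 24 h replicate 1 none was lower at 24 h. Without either 1 h array or 24 h replicate 2, 1 was.

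The named members lie on all 5 chromosomes, with 7, 4, 8, 5 and 5 on chromosomes 1 to 5, and no member was next to another named member. The annotation named 33 of the genes adjacent to them, and 22 of these were tested. None of the 22 was higher at 1 h by limma's adjusted p, 2 were higher and 3 lower at 24 h, and 1 was higher and 3 lower at 7 d. Of all tested probe sets 0.867% were higher at 1 h, 11.1% higher and 15.1% lower at 24 h, and 7.33% higher and 8.54% lower at 7 d, so the neighbours' counts are near the background. AT3G15460, next to AT3G15450, was higher by 1.18 at 24 h and 0.90 at 7 d, and stood at 0.04 at 1 h. AT4G02340, next to ATPMEPCRB, was higher at 24 h by 0.52. Both were picked out after their values were seen.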

How the data were processed

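The 8 samples were hybridised to 1-colour Affymetrix ATH1 arrays. The deposited value table holds 1 intensity per probe set and array, made by the authors with MAS5, whose version is not given, per the submitters' processing notes. Its 2% trimmed mean was about 100 on every array (100.009 to 100.011), so the values are linear and already scaled. Here they were taken as log2(signal + 6), where the pseudocount of 6 holds down the fold changes of weak probe sets. Differences and ± standard errors come from limma 3.58.1 (R 4.3.3) with an eBayes variance trend. One fit was made over all 4 times (4 residual degrees of freedom) and the 14756 probe sets at or above the 40th percentile of signal on at least 2 arrays, with Benjamini-Hochberg adjustment over all of them and a threshold of 0.05. A fold change is 2 to the power of such a difference. With 2 arrays per time, the number of arrays limits the precision.

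Of the 22746 probe sets searched, 13513 named 1 gene in the platform annotation, 503 several and 8730 none; only genes named singly are named here, with neighbours from the RefSeq annotation of TAIR10.1. The members and gene lists were chosen with earlier results of these data known. The named genes are all 29 named members; other genes are named from the lists, as neighbours, or as nearest to a threshold. The alternatives were other pseudocounts, normalizations, filters and thresholds, a fit without the variance trend, a fit of only the times compared, the replicate number as a block, and leaving out each array. Promoter motifs were not analysed here. The fit was checked on simulated data.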

Additional observations from a re-analysis of the deposited data

Results flagged for a closer look

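One member had both 7 d arrays below both control arrays. Probe set 247455_at, without a named gene here, read 45.4 and 35.5 on the control arrays, 96.9 and 73.4 at 1 h, 72.2 and 85.6 at 24 h and 34.0 and 27.7 at 7 d. Its 4 early cold arrays were above both control arrays, by the choice of members. Its 2 arrays of 7 d were below both, as in 29.9% of all tested probe sets. The 7 d difference from control was -0.33 on the log2(signal + 6) scale and did not pass (limma adjusted p = 0.301). EXLA1 and AT3G17800 had lower 7 d differences, -0.40 and -0.42, with 7 d arrays that overlapped control. For 247455_at the difference of 7 d from 24 h passed (-1.21 ± 0.20, limma adjusted p = 0.0129). Members were kept for high 24 h values, which by itself moves this difference down. A fall from 24 h also does not show a level below control.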

How the results depend on the processing

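No count and no named value that passed the test changed direction in the settings run. Of the named values that did not pass, 5 changed sign in 8 fits: AT2G27500 at 7 d against control (-0.02 without control replicate 1, -0.17 without 7 d replicate 1), and against 24 h AT1G24530 (-0.03 with quantile normalization, -0.02 with median centring), AT3G51660 (0.06 without 24 h replicate 2, 0.22 without 7 d replicate 1), CIL (0.04) and AT3G52870 (-0.10), both without 7 d replicate 2. The number of members, 60, was 37 with a required difference of 1 and 108 with 0.6, and 60 to 110 when 1 array was left out. With a pseudocount of 1 it was 70, of which 60 were shared, and with one of 16 it was 48, all shared. Of 30 members above control at 7 d, 19 to 30 were counted without 1 array and 21 to 40 in the other settings. Of 24 below their 24 h level, the counts were 5 to 27 and 19 to 32. The 21 members higher at 24 h than at 1 h were 17 to 21 and 19 to 22, and the 2 lower ones 2 to 4 without 1 array. For the gene lists, those higher at 1 h ranged from 1 to 4 without 1 array and those lower at 24 h from 0 to 2. The latter count was 1 with a 60th percentile filter and 1 with only the compared times in the fit. The causes were not tested. The labels share only a replicate number between times; with the replicate block 40 members were above control at 7 d, 32 below their 24 h level and 40 above control at 1 h. Under the block AT5G46710, AT2G28400, AT3G02320 and AT2G24240 passed against control at 7 d, and AT4G01870, AT2G28400, AT3G59350 and AT2G27500 against 24 h. The replicate differences of any pair of times correlated over probe sets at 0.16 to 0.36, and the same replicate was higher at all 4 times in 17 of 60 members (28.3%), against 24.4% of all tested probe sets. With 2 arrays per time, 17 named members passed at 7 d, of which 5 passed in all 17 alternatives and AT1G49450 in the 16 that tested it, and 14 passed as below 24 h, of which 4 passed in all 17.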
